A study of Mus musculus with 2 samples.

Results

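Cytochrome c oxidase, complex IV of the mitochondrial respiratory chain, was described here through 34 nuclear genes measured in mouse heart. The members were the protein-coding genes whose symbols begin with Cox and a digit, together with Sco1, Sco2, Surf1, Coa3, Coa5, Coa6 and Coa7, out of 55536 annotated genes. They comprised 17 genes of structural subunits, 16 assembly genes and Cox7a2l. The tissue was heart of B6CASTF1/J males at 2 months of age, an F1 cross between B6 and CAST whose alleles the files do not separate. Total RNA was depleted of ribosomal RNA, and 1 library was made from 300 ng, with spike-in RNAs added, for each of 2 biological replicates. There was no treatment and no other genotype. The replicates share a donor entry in the labels, where the males have different numbers; they are taken as 2 mice, and the spread given is that between these 2 libraries. With 1 group of 2 no difference between conditions was tested, and the smallest p that an exact two-sided paired permutation test over 2 mice allows is 0.5.

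The enzyme passes electrons from cytochrome c to oxygen and pumps protons across the inner mitochondrial membrane. Its catalytic core, which holds heme a and copper, is encoded in the mitochondrial genome, while the surrounding subunits are nuclear and several exist as tissue-specific isoforms encoded by separate genes. Assembly factors insert the heme and the copper and bring the core subunits together. In heart and skeletal muscle of rodents the isoforms Cox6a2, Cox7a1 and Cox8b are known to accompany or replace Cox6a1, Cox7a2 and Cox8a.

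The values came from a gene table made from reads aligned to the transcriptome and from a second quantifier that worked directly from the reads, both deposited by the authors. Levels are in TPM, which divides counts by transcript length and scales every library to the same total, and errors are SD over 2 mice. The libraries held 39177981 and 44544839 expected counts. All 8 cardiomyocyte markers stood at 1 TPM or more in both libraries, with summed levels of 29242 and 31974 TPM. All 6 testis markers were at 0 in both, 1 of 6 skeletal muscle markers and 3 of 5 brown fat markers reached 1 TPM, and red cell markers summed to 20348 and 6413 TPM.

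The coding sequences of the muscle-type isoforms and their ubiquitous partners are shown because reads can be assigned between them only where they differ. They were read from the GENCODE M21 transcripts (build GRCm38), 5′ to 3′, whole except for Cox6a1, of which bases 40 to 339 are given, and capitals mark bases that differ from the aligned partner or have no counterpart in it. Cox6a lies at the interface of the enzyme's dimer, Cox7a at the contact with complex III, and Cox8 is a small membrane subunit.
Cox6a2: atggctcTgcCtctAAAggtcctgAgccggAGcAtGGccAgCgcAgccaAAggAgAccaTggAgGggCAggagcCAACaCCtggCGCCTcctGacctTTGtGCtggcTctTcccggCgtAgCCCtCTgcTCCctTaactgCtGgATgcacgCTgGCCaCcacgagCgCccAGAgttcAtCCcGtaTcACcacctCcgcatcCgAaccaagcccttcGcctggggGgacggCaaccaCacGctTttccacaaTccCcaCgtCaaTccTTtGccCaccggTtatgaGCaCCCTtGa
Cox6a1: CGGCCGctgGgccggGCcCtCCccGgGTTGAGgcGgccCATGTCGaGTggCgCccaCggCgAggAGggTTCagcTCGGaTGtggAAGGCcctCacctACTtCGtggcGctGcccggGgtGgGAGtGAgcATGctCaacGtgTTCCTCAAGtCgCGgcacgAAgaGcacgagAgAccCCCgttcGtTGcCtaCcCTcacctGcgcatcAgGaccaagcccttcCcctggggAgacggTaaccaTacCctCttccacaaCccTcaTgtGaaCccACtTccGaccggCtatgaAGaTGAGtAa
Cox7a1: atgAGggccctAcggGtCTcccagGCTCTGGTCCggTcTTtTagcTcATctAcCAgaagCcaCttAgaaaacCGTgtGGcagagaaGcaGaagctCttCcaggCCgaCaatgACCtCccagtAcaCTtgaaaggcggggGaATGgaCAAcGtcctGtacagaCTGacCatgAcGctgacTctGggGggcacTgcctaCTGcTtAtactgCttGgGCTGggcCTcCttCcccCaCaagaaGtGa
Cox7a2: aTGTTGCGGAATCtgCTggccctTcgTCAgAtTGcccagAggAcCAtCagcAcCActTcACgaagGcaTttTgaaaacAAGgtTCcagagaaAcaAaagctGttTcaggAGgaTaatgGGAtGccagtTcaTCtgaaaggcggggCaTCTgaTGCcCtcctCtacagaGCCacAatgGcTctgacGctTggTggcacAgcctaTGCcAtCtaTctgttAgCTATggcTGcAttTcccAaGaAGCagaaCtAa
Cox8b: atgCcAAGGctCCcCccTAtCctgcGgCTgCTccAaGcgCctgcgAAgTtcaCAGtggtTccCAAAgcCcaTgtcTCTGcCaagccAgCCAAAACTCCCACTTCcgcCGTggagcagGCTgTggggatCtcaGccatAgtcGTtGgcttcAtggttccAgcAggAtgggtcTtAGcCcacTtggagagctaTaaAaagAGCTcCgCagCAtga
Cox8a: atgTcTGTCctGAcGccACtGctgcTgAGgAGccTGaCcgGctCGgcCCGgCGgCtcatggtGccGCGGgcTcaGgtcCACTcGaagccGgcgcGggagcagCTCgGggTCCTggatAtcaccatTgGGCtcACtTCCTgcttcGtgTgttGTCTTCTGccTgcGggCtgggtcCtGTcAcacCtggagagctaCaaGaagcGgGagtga
The coding sequences are at chr7:128205729-128206295 (minus strand) for Cox6a2, chr5:115345843-115348950 (minus) for Cox6a1, chr7:30184231-30185967 (plus) for Cox7a1, chr9:79755547-79759657 (minus) for Cox7a2, chr7:140898988-140900342 (minus) for Cox8b and chr19:7215389-7217512 (minus) for Cox8a. The aligned coding sequences were identical at 56.3% of positions for Cox6a2 and Cox6a1, 59.9% for Cox7a1 and Cox7a2 and 53.4% for Cox8b and Cox8a, gaps included. No 31-base stretch was shared within any of these pairs, over all annotated transcripts. The same held for Cox4i1 and Cox4i2, at 62.9% identity, and for Cox6b1 and Cox6b2, at 61.9%.

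Of the 34 members, 31 reached 1 TPM in both mice, against 49.8% of 22015 nuclear protein-coding genes. The 3 that did not were Cox6b2, Cox7b2 and Cox8c, isoform genes known mainly from testis. Cox6b2 stood at 0.99 and 0.66 TPM, from 12 and 10 expected counts, just under the threshold. Cox7b2 and Cox8c had 0 counts in both mice in the gene table, where the 3 counts that a count of 0 allows are 0.0770 and 0.0677 CPM in replicates 1 and 2. The second quantifier gave Cox7b2 1 count in replicate 1 and 0 in replicate 2.

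Structural subunit genes were the most abundant class, with a median of 664 ± 23.9 TPM over all 17. The assembly genes had a median of 25.03 ± 1.13 TPM. All members together had a median of 41.4 ± 1.22 TPM, compared with 8.68 ± 0.205 TPM for the 10957 detected nuclear protein-coding genes. Over single mice the median of the structural genes was 647 and 681 TPM, close to ATP synthase genes at 611 and 647 TPM (17 genes) and complex III subunits at 580 and 623 TPM (9 genes). It was above complex I subunits at 307 and 333 TPM (35 genes) and complex II subunits at 458 and 504 TPM (4 genes) in both mice. The members summed to 11978 and 13042 TPM.

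**Figure D1:**
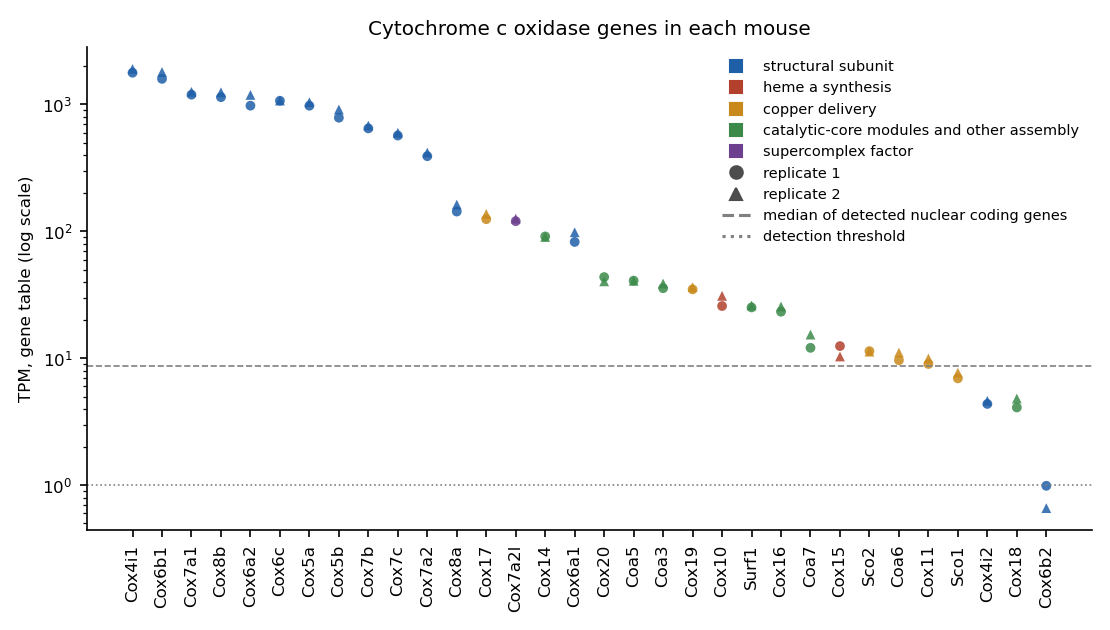
Level of each member above 0 in each mouse, in TPM of the gene table on a log scale, ordered by the mean and coloured by role. Circles and triangles are replicates 1 and 2. The structural subunit genes occupy the top, led by Cox4i1 at 1777 and 1903 TPM, the assembly genes start with Cox17 at 125 and 137 TPM, and Cox6b2 lies under the detection threshold of 1 TPM.

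Cox4i1, a large nuclear subunit that takes part in regulation of the enzyme by ATP, led the members with 1777 and 1903 TPM and was the 18th of 22015 nuclear protein-coding genes. Cox4i2, its partner known from lung and from pericytes and smooth muscle, had 4.37 and 4.62 TPM. Cox4i1 thus made up 99.75% and 99.76% of Cox4 transcripts. The 8 pericyte and smooth muscle markers were all detected, with summed levels of 187 and 213 TPM, and their part in the Cox4i2 level was not tested.

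Cox6b1, the subunit facing the intermembrane space where cytochrome c docks, followed with 1590 and 1799 TPM. It made up 99.94% and 99.96% of Cox6b transcripts. The lowest value of Cox6b1 was above the highest of Cox7a1, the gene after it in order. With the second quantifier, however, Cox6b1 had 893 and 1049 TPM, 0.573 times the gene-table level. It was then below Cox7a1, Cox8b, Cox6c, Cox5a, Cox5b, Cox7b and Cox7c in both mice.

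In the gene table the next genes in order were separated only in part. Cox7a1 had 1193 and 1256 TPM, Cox8b 1140 and 1246 TPM and Cox6a2 978 and 1188 TPM. Cox6c, a single-gene subunit, had 1068 and 1072 TPM, and Cox5a, a matrix-side subunit, had 976 and 1041 TPM. The values of Cox7a1 and Cox8b overlapped, as did those of Cox8b and Cox6a2 and those of Cox6a2 with Cox6c and Cox5a. Both values of Cox7a1 were above those of Cox6a2, Cox6c and Cox5a, those of Cox8b above Cox6c and Cox5a, and those of Cox6c above Cox5a. Cox5b, the zinc-binding subunit, had 786 and 912 TPM, below Cox5a in each mouse. Cox7b, on the X chromosome, had 647 and 681 TPM, and Cox7c had 568 and 598 TPM. With the second quantifier part of this order changed. There Cox6c had 1974 and 2006 TPM, above Cox7a1 at 1659 and 1732 TPM in both mice. Cox8b, at 1927 and 2071 TPM, was below Cox6c in replicate 1 and above it in replicate 2. Cox7b (1274 and 1371 TPM) and Cox7c (1448 and 1574 TPM) were above Cox5a (1251 and 1303 TPM) in both mice.

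Cox7a2 had 391 and 417 TPM, Cox8a 143 and 162 TPM and Cox6a1 82.5 and 98.3 TPM. In both mice each of these genes was below its muscle-type partner. Cox6a2 formed 92.2% and 92.4% of Cox6a transcripts, Cox8b 88.8% and 88.5% of Cox8 transcripts, and Cox7a1 75.3% and 75.1% of Cox7a transcripts. Of these 3 subunits, Cox7a was the one in which the ubiquitous gene kept the largest share in both mice.

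The share of Cox7a1 was the one that depended most on the quantification. With the second quantifier it was 66.4% and 65.4% of TPM, with Cox7a1 at 1659 and 1732 TPM and Cox7a2 at 838 and 915 TPM. In counts, which are not divided by length, the share of Cox7a1 was 48.6% and 48.0% with the second quantifier and 64.0% and 63.4% in the gene table. Cox7a1 was then below Cox7a2 in the counts of the second quantifier, at 0.946 and 0.921 times its counts, and above it in the other 3 measures. The shares of Cox6a2 (89.1% and 89.5% with the second quantifier) and Cox8b (89.4% and 89.1%) stayed the larger part in all 4 measures.

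**Figure D2:**
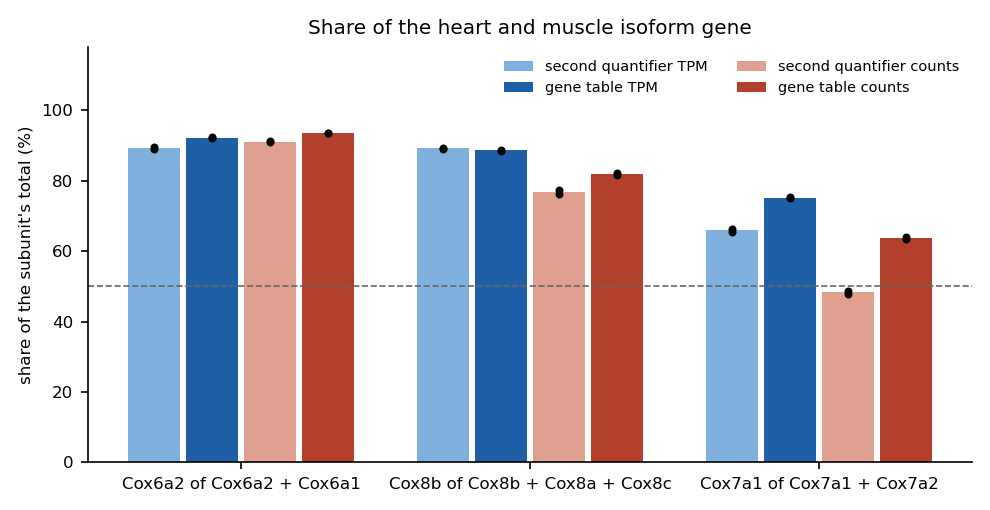
Share of the muscle-type isoform gene in the total of its subunit, in percent, in 4 measures. Bars are means, points are the 2 mice and the dashed line is equality with the partner. Cox7a1 lies below the line only in the counts of the second quantifier, at 48.6% and 48.0%, and Cox6a2 and Cox8b lie above it in each measure.

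Summed over isoform genes, the 10 nuclear subunits differed less than single genes did, although each is present once in the enzyme. In the gene table the Cox4 sum was highest, at 1781 and 1907 TPM, and Cox7c lowest, at 568 and 598 TPM, a spread of 3.13-fold and 3.19-fold. With the second quantifier Cox7a was highest, at 2497 and 2648 TPM, and Cox6b lowest, at 894 and 1050 TPM, a spread of 2.79-fold and 2.52-fold. The order of the subunits at either end therefore differed between the quantifications, while the size of the spread was similar. The mean over the 10 subunits was 1135 and 1238 TPM in the gene table.

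The 3 catalytic subunits encoded by the mitochondrial genome were at other levels. mt-Co1, which carries heme a, had 36906 and 38046 TPM, 32.5 and 30.7 times the mean nuclear subunit. mt-Co3 had 13585 and 16956 TPM, 12.0 and 13.7 times that mean. With the second quantifier mt-Co3 had 11817 and 10366 TPM, 7.63 and 6.17 times its mean nuclear subunit. The order of the mice was thus reversed for mt-Co3. For mt-Co1 that quantifier gave 29.2 and 27.8 times. In the gene table mt-Co2, which receives electrons from cytochrome c through its copper centre, had 568 and 398 TPM, below the mean nuclear subunit. The second quantifier gave mt-Co2 3337 and 2672 TPM, 2.15 and 1.59 times its mean nuclear subunit. Whether mt-Co2 was above or below the nuclear subunits thus depended on the quantification. Copies of these mitochondrial genes in the nuclear genome share their reads, and the part of such copies in these levels was not tested.

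The assembly genes of copper delivery covered a wide range of levels. Cox17, the small chaperone that hands copper to Sco1 and Cox11, was the highest assembly gene with 125 and 137 TPM. Cox19, a related intermembrane-space protein that acts with Cox11, had 34.9 and 36.3 TPM. The other genes of copper delivery were near the median of detected genes. Sco2 had 11.4 and 11.3 TPM, Coa6 9.65 and 11.1, Cox11 9.02 and 9.97 and Sco1 6.95 and 7.71. Sco1 and Sco2 both serve the copper centre of mt-Co2, and Sco2 was above Sco1 in both mice. The order of Cox17 over each other copper gene held in both mice and with the second quantifier, where Cox17 had 115 and 126 TPM.

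In heme a synthesis, Cox10, which adds the farnesyl tail to heme, had 25.8 and 31.03 TPM, and Cox15, which completes heme a, had 12.5 and 10.3 TPM. Cox10 was above Cox15 in both mice. Factors of the mt-Co1 module were led by Cox14, which binds newly made mt-Co1, with 91.3 and 90.3 TPM, the second highest assembly gene. Coa3, its partner, had 35.7 and 38.8 TPM and Surf1, whose human counterpart is mutated in Leigh syndrome, 25.2 and 26.1 TPM. Of the factors that handle mt-Co2, Cox20 was next among assembly genes in the gene table, with 43.7 and 40.4 TPM. Cox16 had 23.3 and 25.6 TPM and the membrane insertase Cox18 was lowest, with 4.10 and 4.82 TPM. Coa5 had 40.9 and 40.8 TPM, overlapping Cox20, and Coa7 had 12.1 and 15.4 TPM. Cox7a2l, which joins complex IV to complex III in supercomplexes, had 120.2 and 126 TPM, close to Cox17. With the second quantifier Cox19, at 68.9 and 69.8 TPM, was above Cox20, at 51.0 and 56.4 TPM. Coa3, at 51.2 and 56.9 TPM, was slightly above Cox20 there.

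The other genes of the pathway had a median of 34.2 ± 0.672 TPM, and all 21 of those found reached 1 TPM in both mice. Ndufa4, once assigned to complex I and now counted as a subunit of complex IV, had 1197 and 1247 TPM, among the levels of the structural genes. The phosphate and copper carrier Slc25a3 had 965 and 1034 TPM and Chchd10 723 and 782 TPM. Lrpprc and Slirp, which stabilise mitochondrial messages, had 51.2 and 56.8 TPM and 61.5 and 64.7 TPM, and the mt-Co1 translation activator Taco1 21.7 and 22.8 TPM. Cytochrome c itself, Cycs, had 632 and 682 TPM with the second quantifier, against 56.5 and 59.6 TPM in the gene table. Pet117 was at 0 with the second quantifier, against 3.48 and 3.50 TPM in the gene table.

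Cox7c, a small subunit of the membrane domain, was the member whose level differed most between the quantifications. The second quantifier gave it 1448 and 1574 TPM, against 568 and 598 TPM in the gene table, a ratio of means of 2.59. Its coding sequence of 192 bases (Cox7c-203, chr13:86045753-86046675, minus strand) is shown because a processed pseudogene, Gm12338 at chr11:75599763-75599954 (minus strand), is annotated with exactly the same 192 bases.
Cox7c and Gm12338: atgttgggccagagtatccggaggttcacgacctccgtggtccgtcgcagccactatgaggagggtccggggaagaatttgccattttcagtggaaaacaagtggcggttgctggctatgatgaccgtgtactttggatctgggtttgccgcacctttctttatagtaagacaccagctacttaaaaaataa
A second copy, Gm10012 on chromosome 17, matched the same stretch at 190 of 192 bases. With the second quantifier Gm12338 had 0 TPM in both mice, against 1523 and 1624 TPM in the gene table, more than Cox7c itself. Gm10012 had 0.687 and 0 TPM with the second quantifier, against 128 and 133 TPM in the gene table. In the gene table the copies took 5475 and 6590 expected counts beside 7512 and 9056 for Cox7c, 42.2% and 42.1% of the counts of the group. With those counts added before division by the length of Cox7c, an alternative chosen after seeing the data, its gene-table level would be 983 and 1033 TPM. It then overlapped Cox5a, in place of being the lowest subunit. By the reference sequence, reads inside the identical stretch cannot be assigned to either gene. The CAST alleles of both genes were not examined.

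A total of 46 genes of other biotypes shared at least 20 stretches of 31 bases with members. They summed to 62.8 and 66.6 TPM with the second quantifier, against 1754 and 1868 TPM in the gene table. The Cox7c copies held most of the sum in the gene table, and the copy Gm6969 of Cox7a2l held most of it with the second quantifier. Gm6969 had 48.6 and 54.3 TPM with the second quantifier, against 90.5 and 99.0 TPM in the gene table. Gm11273, annotated as protein-coding and sharing 15.8% of the 31-base words of Cox5b, had 6.10 and 0 TPM with the second quantifier, against 91.6 and 96.7 TPM in the gene table. In contrast, Cox8b, Cox7a1, Cox8a, Cox4i2, Cox14, Cox18, Cox6b2 and Cox8c shared no such word with any other gene.

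Over all members, 25 of 31 detected ones (80.6%) were higher with the second quantifier, where 83.8% of all 11931 detected genes were, so the members' count was near the background. Their median ratio was 1.27, compared with 1.14 over all detected genes. Past 2-fold were 2 members, Cox7c and Cox7a2, both higher with the second quantifier, where 1.99% of all genes passed. None was 2-fold lower, where 3.8% of all genes passed. Cox7a2 had 838 and 915 TPM with the second quantifier, against 391 and 417 TPM in the gene table. Just inside 2-fold lay Cox7b at 1.99, Cox19 at 1.95 and Cox6c at 1.86 times.

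**Figure D3:**
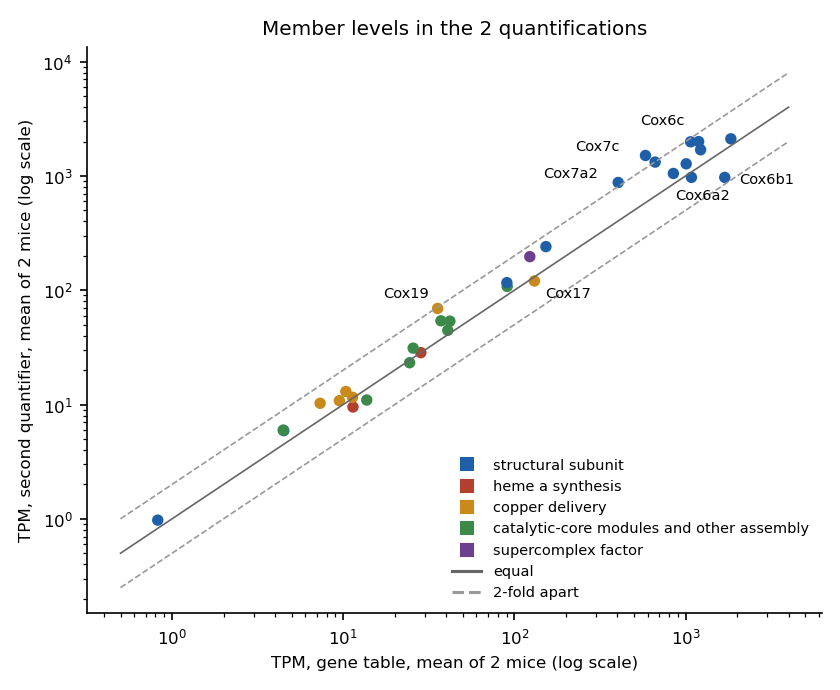
Level of each member with the second quantifier (vertical) against the gene table (horizontal), both in TPM on log scales, as means of 2 mice. The solid line is equality and the dashed lines are 2-fold. Cox7c at 1511 against 583 TPM and Cox7a2 at 877 against 404 TPM lie above the upper dashed line, and Cox6b1 at 971 against 1695 TPM lies nearest the lower one.

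The members are short, and counts of short genes differed between the quantifications in general. The median length of the longest annotated transcript was 876 bases for the members, compared with 3458 for detected nuclear protein-coding genes. For the 12 detected members whose longest transcript is under 750 bases, the second quantifier counted a median of 0.722 times the gene-table counts, compared with 0.751 over 201 such genes, whose quartiles were 0.550 and 0.906. In the 3 members between 750 and 1000 bases the median was 0.906, compared with 0.905 over 279 genes. Where the longest transcript was longer than this, the members' median was lower than that of other genes. It was 0.897 over 7 members between 1000 and 2000 bases, compared with 1.003 over 1743 genes with a lower quartile of 0.941. Between 2000 and 4000 bases it was 1.006 over 8 members, compared with 1.05 over 4382 genes with a lower quartile of 1.01. For 4347 genes with a transcript of 4000 bases or more that median was 1.08. Cox8b, with 1 transcript of 360 bases and no shared word, had 5259 and 6398 counts with the second quantifier, against 9225 and 11437 in the gene table. The effective length by which counts were divided was 84.5 bases for Cox8b with the second quantifier, against 261 in the first tables, and its TPM was 1.68 times higher. Cox6a2, with 1 transcript of 680 bases, had 9765 and 14091 counts, against 17605 and 24272, and its TPM was 0.898 times the gene-table value. By longest annotated transcript, the members' median count ratio was thus inside the quartiles of genes under 1000 bases. It was below the lower quartile between 1000 and 4000 bases. In that range the most abundant transcripts of Cox5a, Cox7b, Cox6c and Cox17 were shorter in both quantifications, at 645, 526, 503 and 444 bases. The lengths of the transcripts expressed were therefore not matched in this comparison. What causes the differences in counts was not tested.

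Annotated non-coding transcripts took part of the members' signal. Transcripts of the protein-coding type held 85.7 ± 0.637% of the members' TPM with the second quantifier and 83.8 ± 0.155% in the first transcript table. For all nuclear protein-coding genes these shares were 81.7 ± 0.214% and 86.1 ± 0.128%. Retained-intron transcripts held 9.17 ± 0.185% and 9.86 ± 0.168% of the members' TPM. In the first table the largest was Cox6b1-202, with 645 and 762 TPM there and 1.75 and 2.47 TPM with the second quantifier. With the second quantifier most of it was Cox7b, whose 526-base retained-intron transcript Cox7b-203 had 1272 and 1369 TPM with the second quantifier and 343 and 344 TPM in the first table. The coding transcript Cox7b-201 had 2.13 and 1.61 TPM with the second quantifier, against 301 and 333 TPM in the first table. Both tables therefore named the retained-intron transcript dominant for Cox7b, at 99.9% and 51.8% of its TPM, and how much of the Cox7b level codes for protein cannot be told from them.

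By the mean of the mice, the tables named different dominant transcripts for 9 of the 32 members above 0 in both, of which 7 differed in both mice, Coa6 in replicate 1 only and Cox16 in replicate 2 only. Among members with several transcripts at 1 TPM or more the count was 8 of 28, where 24.1% of all such genes differed, so the members were close to the background. For Cox4i1 the second quantifier placed 1943 and 2149 TPM on Cox4i1-205 and 0 on Cox4i1-201, against 7.04 and 15.3 TPM and 1588 and 1745 TPM in the first table. The 2 transcripts have the same coding sequence. For Cox6b1 it placed 807 and 866 TPM on Cox6b1-201, against 120.1 and 93.9 TPM, and 84.2 and 180.3 TPM on Cox6b1-204, against 820 and 939 TPM. Here the coding sequences differ.

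In 4 of these 9 members 1 of the dominant transcripts has no coding sequence. For Cox6a1 the second quantifier gave 92.8 and 116 TPM to the retained-intron transcript Cox6a1-202, against 1.68 and 1.81 TPM in the first table. For Cox7a2 it gave 445 and 496 TPM to the processed transcript Cox7a2-203, against 109 and 102 TPM, and for Cox5b 228 and 181 TPM to the processed transcript Cox5b-205, against 539 and 619 TPM. Cox16 had Cox16-202 dominant with the second quantifier, at 9.71 and 10.1 TPM, and in the first table a 458-base processed transcript, at 8.52 and 10.1 TPM, beside 9.83 and 7.92 TPM there for Cox16-202. For Coa6, Sco2 and Cox6b2 the dominant transcripts differed but had the same coding sequence. Sco2-202 had 7.27 and 10.4 TPM with the second quantifier, against 2.17 and 2.34 TPM in the first table, and Coa6-202 had 7.64 and 6.27 TPM, against 1.55 and 0.71 TPM. Coa6-201 had 4.42 and 7.69 TPM with the second quantifier, against 8.10 and 10.4 TPM in the first table. In 3 further members, Cox7b, Cox19 and Coa7, both tables named the same transcript and it has no coding sequence. A 660-base processed transcript held 48.2% of the Cox19 TPM with the second quantifier and 60.2% in the first table, and Coa7-201, of the same type, held 56.7% and 46.4% of the Coa7 TPM. The isoform shares above count all transcripts of a gene, coding or not.

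**Figure D4:**
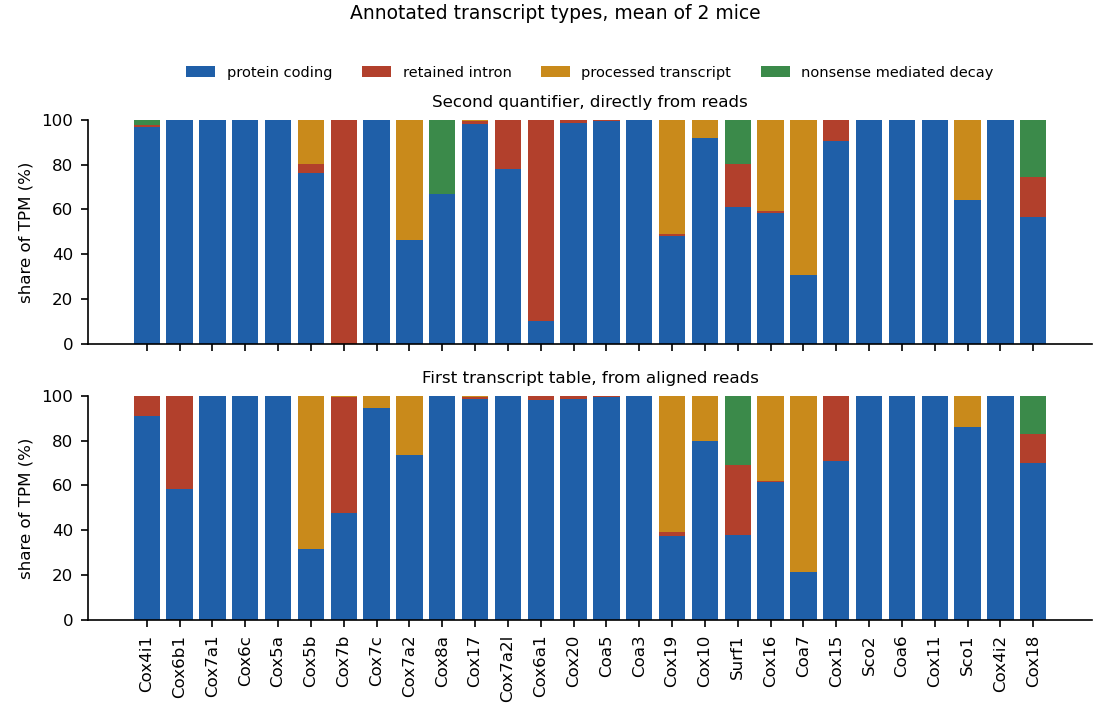
Share of each annotated transcript type in the TPM of detected members with several transcripts, in percent, as means of 2 mice, with the second quantifier above and the first transcript table below. Cox7b is 99.9% retained intron above and 51.8% below, and Cox6a1 is 89.7% above and 1.94% below.

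Some members also overlap other genes, and the sources used here do not state whether counting used strand. Of the 34 members, 15 overlap another annotated gene and 13 of them one on the opposite strand. The share over all genes was not counted, so whether this is unusual cannot be told. Cox20 shares 84.98% of its 31-base words with the reverse strand of Hnrnpu, an RNA-binding protein gene at 69.7 and 67.6 TPM. Sco2 shares 66.2% with the same-strand gene Tymp, at 0.28 and 0.18 TPM, and 64.2% with the reverse strand of Ncaph2, at 20.4 and 21.3 TPM. Cox11 shares 45.3% with the reverse strand of Tom1l1, at 5.40 and 6.31 TPM. Cox16 shares 55.2% with the same-strand gene Gm20498, at 16.4 and 18.7 TPM. The levels of these 4 members are therefore uncertain.

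No member differed 2-fold between the mice. Among 12453 genes with a mean of at least 50 expected counts, 0.201% exceeded 2-fold towards replicate 2 and 0.369% towards replicate 1; among 31 members the count was 0 in each direction, and also 0 at 1.5-fold. The widest was Cox6a2, with 17605 and 24272 counts in replicates 1 and 2, a log2 ratio (replicate 2 over 1, after TMM scaling) of 0.23 with a 95% counting interval of 0.20 to 0.26. At the other end Cox20 had 507 and 532 counts and a log2 ratio of -0.16 with an interval of -0.34 to 0.01. These intervals are exact Clopper-Pearson intervals and cover counting error only. Cox6a1, the partner of Cox6a2, had a log2 ratio of 0.20.

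The members' median log2 ratio was 0.05, compared with 0.01 over all genes. Of 31 members 24 (77.4%) were higher in replicate 2, compared with 52% of all genes. By class, 13 of 14 structural subunit genes (92.9%) and 10 of 16 assembly genes (62.5%) were higher there. For subunits of the other complexes the shares were 91.4% of 35 in complex I and 100% of 4 in complex II. They were 100% of 9 in complex III and 82.4% of 17 ATP synthase genes. The members' count rests on the scaling. With spike-in counts the median of all genes moved to 0.18 and all 31 members were higher in replicate 2. With total counts 27 members were. Each of these scalings shifts every gene alike, so the members' median stayed 0.05 above that of all genes by construction. That gap is therefore no check of the scaling. Red cell markers, which were 20348 and 6413 TPM in replicates 1 and 2, were lower in replicate 2. By less, so were the sums of endothelium markers (213 and 210 TPM) and of macrophage markers (95.9 and 91.9 TPM). The sums fell through Kdr, Egfl7 (52.7 and 42.5 TPM), Csf1r and Lyz2 (61.7 and 57.0 TPM). The other markers of these lists, Pecam1, Cdh5, Tie1, Emcn, Cd68, C1qa and Adgre1, were higher in replicate 2. Summed brown fat markers (29.9 and 40.6 TPM), of which Ucp1 had 1.43 and 6.95 TPM, and white fat markers (9.20 and 14.0 TPM) were higher in replicate 2. So were the sums of pericyte and smooth muscle markers (187 and 213 TPM), fibroblast markers (182 and 199 TPM) and cardiomyocyte markers. In these lists Cspg4, Col1a1 and Nppa were lower in replicate 2, Nppa only slightly. The part of these markers in the members' small differences was not tested.

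**Figure D5:**
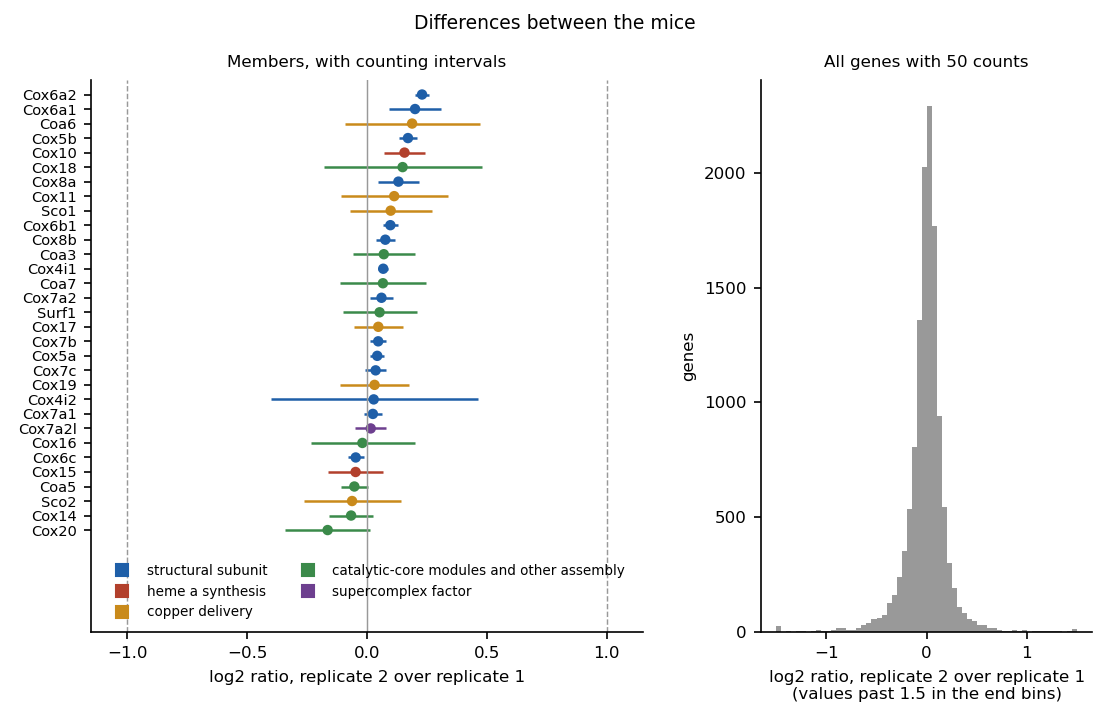
Left, log2 ratio of replicate 2 over replicate 1 for 31 members with 95% counting intervals, coloured by role, with dashed lines at 2-fold; right, the same ratio for all 12453 genes. Members run between -0.16 for Cox20 and 0.23 for Cox6a2, and none reaches 2-fold.

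Promoter sequences of 300 bases around the annotated start were present in the RefSeq table (GRCm38.p6) for 26 members and were searched for short motifs on both strands. Shares are given for members, for all 27025 genes in the table and for the 8621 detected nuclear protein-coding genes among these. The 26 members include Cox6b2 and Cox7b2, which were not detected. Both carry the SP1 box given below, and Cox7b2 also the TATA motif. The ETS motif CCGGAAG, known from promoters of many mitochondrial genes, was found in 10 of 26 members (38.5%), compared with 9.93% of all genes and 21.1% of detected genes. Most of the 10 were assembly genes, with Cox6a1, Cox6b1 and Cox8a as the structural ones. The NRF1 core GCGCANGC was found in 3 (11.5%), against 11.2% of all and 23.6% of detected genes, and the YY1 motif AAGATGGC in 2 (7.69%), against 3.19% of all and 5.54% of detected genes. The SP1 box GGGCGG was in 16 (61.5%), above the 38.2% of all genes and below the 70.8% of detected genes. The TATA motif TATAAA was found in Cox8b, Cox10 and Cox7b2 (11.5%), against 15.7% of all and 8.51% of detected genes. The ERR motif AAGGTCA was in 0 of 26, against 5.38% of all and 3.77% of detected genes, and the MEF2-like TAAAAATA in 0 of 26, against 3.09% and 1.66%. Median GC content was 57.8% for the members' promoters and 52.8% for all, and its part in these shares was not tested. The members not in the table are Cox4i1, Cox4i2, Cox6a2, Cox6c, Cox17, Cox18, Cox8c and Coa6.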

How the data were processed

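Total RNA-seq of 2 libraries of 1 group was used, with groups and replicate numbers from the labels. The authors deposited, per the file headers, a gene table and a first transcript table of expected counts and of TPM, FPKM and posterior mean TPM values, and a second transcript table with estimated counts and TPM, called here the second quantifier. The deposited descriptions name mm10 and GENCODE M21. The aligner, the quantifiers and their versions stay unnamed, as not given in the sources used here. Headers of the first pair of tables match RSEM's and those of the other kallisto's. The 96 spike-ins entered no total of gene counts.

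Second-quantifier gene levels are sums over transcripts. Ratios between mice are expected counts rounded for scaling with edgeR TMM factors (edgeR 4.0.16, R 4.3.3; log2 ratio of library sizes 0.23), 0.5 being added to each count; genes needed a mean of 50 counts or more. The calculation of the ratio was checked on simulated counts with known fold changes. These held counting error only, so the check does not cover variation between mice. Words of 31 bases were compared over all GENCODE M21 transcripts on both strands, and coding sequences were aligned globally with Biopython 1.88. DESeq2 1.42.0 size factors were an alternative, beside other units, thresholds, priors and scalings and leaving out each mouse. Python 3.11.15 was used.

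Members and lists were chosen with earlier results of these data known. All members were to be named, with values per mouse for isoform genes, the 3 highest assembly genes, members under 1 TPM, and members that differed between mice, quantifiers or dominant transcripts. No p-value was computed, since there was no contrast.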

Additional observations from a re-analysis of the deposited data

How the results depend on the processing

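With 1 group and no contrast, values can show levels and spread only, and counting intervals and floors cover counting error only. No paired analysis was possible because there is 1 group. The number of detected members was 31 or 32 under every alternative tried, and no member passed 2-fold between the mice under any. With 2 mice, leaving out 1 gives the value of the other, which is no check of stability; it gave 8 or 9 members with differing dominant transcripts and 2 or 3 past 2-fold between the quantifiers. Depth limits Cox6b2, Cox7b2 and Cox8c, at 12 counts or fewer.

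With the second quantifier the shares were 99.7% for Cox4i1, 89.3% for Cox6a2, 99.9% for Cox6b1, 65.9% for Cox7a1 and 89.3% for Cox8b, the medians were 61.7 TPM for the members, 991 for the structural genes and 44.2 for the other pathway genes, the sum was 16947 TPM and the protein-coding share 85.7%. In counts the shares were 99.8%, 93.6%, 99.9%, 63.7% and 81.9% in the same order, the medians 1502 (members), 10256 (structural), 637 (assembly) and 836 counts (other genes), and the sum 195003 counts. In FPKM the medians were 32.7, 525, 19.8 and 27.0 and the sum 9888. Rescaled to nuclear protein-coding genes, TPM medians were 106, 1701, 64.1 and 87.6 and the sum 32036. Posterior mean TPM gave 99.8% for Cox4i1 and 99.9% for Cox6b1. With the TPM of the genes of other biotypes that share words added, the sum was 14321 TPM. This adds TPM of short copies directly. For Cox7c that way gave 2287 TPM, against 1008 TPM with counts added before division by length. Spike-in scaling gave a median log2 ratio of 0.23. Dominant transcripts differed in 5 members if it had to exceed the next by 1.5 times, and 9 members differed 1.5-fold between the quantifiers. These changes follow from the unit or quantifier named; their causes were not tested further. Of 32 single members above 0, 28 moved past the spread between the mice with the second quantifier, 26 of the 32 being higher.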
